A study of Mus musculus with 2 samples.

Results

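The Myc and Max network genes examined here were 7 mouse genes in 2 groups, the Myc genes *Myc*, *Mycn* and *Mycl* (3 genes) and the Max partners and antagonists *Max*, *Mga*, *Mnt* and *Mxi1* (4 genes), out of 21755 protein-coding genes on chromosomes 1 to 19 and X. Nanog-bound chromatin was immunoprecipitated with a Nanog antibody (D1G10) from Bruce-4 cells, a single established mouse embryonic stem cell (ESC) line grown with 20% fetal bovine serum and 20 ng/mL of the cytokine mLIF, and was sequenced (ChIP-seq). The same line and medium gave 1 input sample, which has no peak list and was not analysed here, and neither sample has a replicate. A gene's peaks were the distinct intervals of the Nanog peak list whose middle base lay within 250 kb of its transcription start site (TSS), together with those for which it was the nearest protein-coding gene. By this rule 26 of 8735 peaks belonged to the 7 genes, 24 of them within 250 kb of a TSS and 18 with a member as the nearest protein-coding gene.

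Myc proteins are basic helix-loop-helix leucine zipper factors that bind the E-box CACGTG as dimers with Max and activate genes of growth and biosynthesis. Max also pairs with Mnt and with Mxi1, a protein of the Mxd family, and these dimers recruit Sin3 and histone deacetylases to the same E-boxes and repress. Mga, which also carries a T-box, pairs with Max inside a Polycomb complex (PRC1.6) that silences germ cell genes in ESCs, and *Myc* and *Mycn* together sustain the self-renewal of these cells, with *Myc* a target of the LIF pathway.

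The peak list gives only positions, with no strength and no read number for a peak, and with 1 library no difference between genes or groups could be tested. The 8860 lines of the list gave 8737 distinct intervals, 2 of them on unplaced scaffolds that were left out. As a check of the list, a Sox consensus lay in 28.2% of all peaks and in 11.6% of the flanking windows of the same width, and the Nanog core CCATTA in 18.1% and 13.0%. The intervals given below are exact 95% intervals and cover counting error only.

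Nanog peaks were spread unevenly over the network. *Mycn* had 7 peaks within 250 kb of its TSS, *Max* had 5, *Myc* and *Mga* had 4 each, *Mxi1* had 2, and *Mycl* and *Mnt* had 1 each. Of all protein-coding genes 80.4% had 1 or more peaks within this distance and 26.7% had 4 or more, so having a peak in the window did not set the 7 genes apart, and the 4 genes with 4 or more stand beside that share. The mean over all protein-coding genes was 2.43 peaks and the median was 2. As many peaks as at *Mycn*, or more, were found at 4.65% of protein-coding genes, and as many as at *Max*, or more, at 15.2%.

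**Figure D1:**
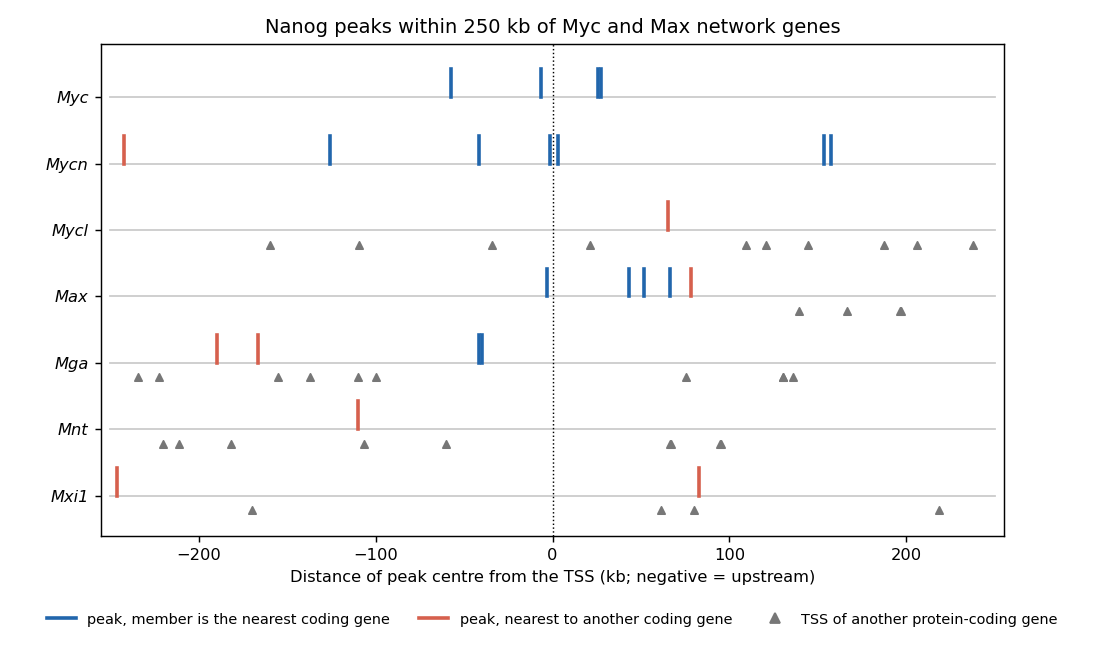
Nanog peaks within 250 kb of each of the 7 genes (rows), plotted by the distance of the peak centre from the TSS in kb, with upstream to the left. Bars are peaks, coloured by whether the member is the nearest protein-coding gene, and triangles are the TSSs of other protein-coding genes, of which *Myc* and *Mycn* have 0 and *Mycl* and *Mga* have 10 each.

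The 7 genes parted more clearly when each peak was given to its nearest protein-coding gene. *Myc* and *Mycn* were each nearest to 6 peaks, *Max* to 4 and *Mga* to 2, whereas *Mycl*, *Mnt* and *Mxi1* were nearest to 0. Across the genome 24.6% of protein-coding genes were nearest to 1 or more peaks, 8.66% to 2 or more, and 0.349% (76 genes) to 6 or more. *Myc* and *Mycn* were thus in a small upper class of genes by this count, and the 3 genes with no peak of their own were in the class that holds most genes.

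This count depends on how far a gene's neighbours lie. No other protein-coding TSS lay within 250 kb of *Myc* or *Mycn*, against 4 around *Max* and *Mxi1*, 9 around *Mnt*, 10 around *Mga* and *Mycl*, and a median of 8 over all protein-coding genes. The stretch of chromosome closer to the *Myc* TSS than to any other protein-coding TSS was 1443 kb long, that of *Mycn* 494 kb, that of *Max* 208 kb, that of *Mxi1* 116 kb, that of *Mga* 87.5 kb, that of *Mnt* 63.1 kb and that of *Mycl* 27.7 kb, with a median of 47.1 kb over all genes. The 3 genes with the longest stretches were also the 3 with most peaks of their own, and the part of gene spacing in the counts was not tested.

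Per length of these stretches the order was different. *Mga* had 22.9 peaks per Mb (2.77 to 82.6, exact Poisson interval), *Max* 19.3 (5.25 to 49.3), *Mycn* 12.2 (4.46 to 26.5) and *Myc* 4.16 (1.53 to 9.05). Over all protein-coding genes, with their stretches pooled, the value was 3.46. Long stretches weigh most in a pooled value, and genes with stretches of like length were not compared. Such intervals treat peaks as independent. Within 250 kb, 4 of the 5 *Max* peaks, 4 of the 7 *Mycn* peaks, and 2 of the 4 at *Myc* and at *Mga* had another within 12.5 kb. The intervals may therefore be too narrow. The value of *Mga* rests on 2 peaks that form a single pair with a gap of 1.41 kb. The intervals of *Max* and *Mycn* lay above the value for all genes, while those of *Myc* and *Mga* included it. Neither placing held under every setting. With the start of every transcript *Max* had 1 peak, at 5.71 per Mb (0.145 to 31.8), beside 3.44 over all genes, and *Mycn* stayed above that value at 12.4 (4.55 to 27.0). With peaks no narrower than the median, *Max* had 0 and *Mycn* 6.08 per Mb (1.25 to 17.8), beside 1.74 over all genes. For *Mycl*, *Mnt* and *Mxi1* the value was 0, which in such short stretches allows up to 133, 58.4 and 31.9 peaks per Mb, so a lower density than elsewhere was not detectable there.

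**Figure D2:**
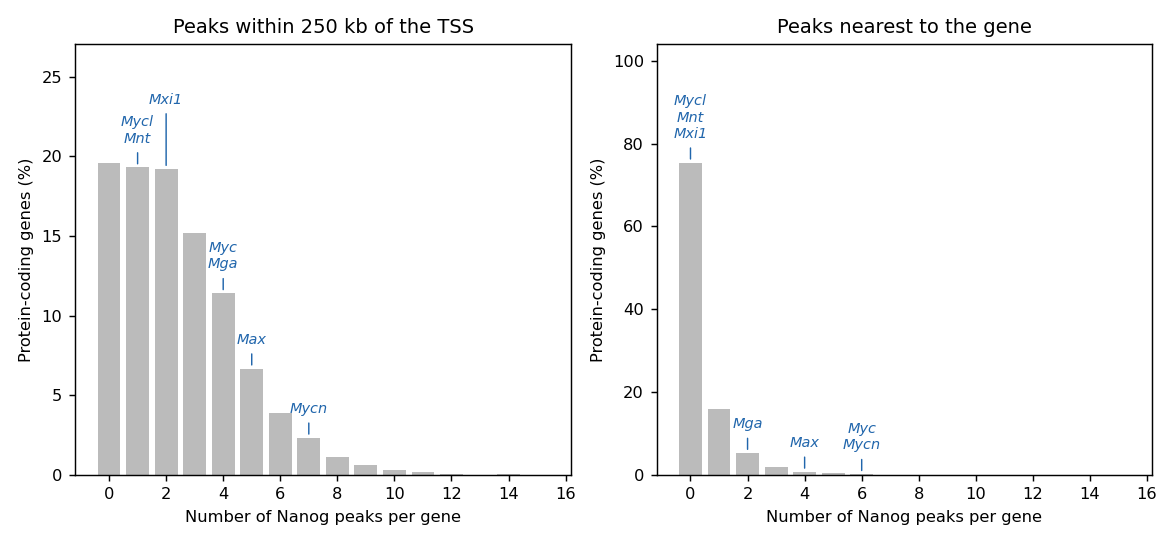
Share of protein-coding genes (y axis, percent) with each number of Nanog peaks (x axis) within 250 kb of the TSS (left) and with the gene as the nearest protein-coding gene (right). The 7 genes are marked above their bars, with *Mycn* at 7 on the left and *Myc* and *Mycn* at 6 on the right, where 24.6% of genes have 1 or more peaks.

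*Myc* lies on chromosome 15 (61985391 to 61990374, plus strand, mm10, ENSMUSG00000022346.15). Its 6 peaks lay 479, 449, 57.5 and 6.31 kb upstream and 25.5 and 27.4 kb downstream of the TSS. All but 1 were intergenic, and the peak at 449 kb lay in an exon shared by the noncoding genes *D030024E09Rik* and *Gm49498*. The 2 downstream peaks lay 1.40 kb apart, and the wider of them (574 bp) was the widest of the gene. They fell between *Myc* and *Pvt1*, a long noncoding RNA gene of 340 kb that starts 52.6 kb downstream of the *Myc* TSS, and 0 peaks lay within *Pvt1*. Beyond them the next peak downstream was 974 kb from the TSS. *Myc* thus had its nearby peaks on both sides, and a long stretch without a listed peak followed downstream. The sequence around the closest peak is shown because it carried 2 copies of the Sox consensus (CCATTGT or CCTTTGT on either strand), given here in capitals. This and the sequences that follow were read from the plus strand of mm10, 5′ to 3′, and their capitals mark the motif named.
Peak 6.31 kb upstream of Myc, chr15:61978931-61979230: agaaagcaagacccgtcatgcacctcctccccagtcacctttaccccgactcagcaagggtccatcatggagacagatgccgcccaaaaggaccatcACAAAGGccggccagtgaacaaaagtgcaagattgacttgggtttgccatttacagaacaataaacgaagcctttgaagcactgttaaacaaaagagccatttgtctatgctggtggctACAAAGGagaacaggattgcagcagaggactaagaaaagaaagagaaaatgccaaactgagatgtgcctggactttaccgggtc

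*Mycn*, the N-myc gene, lies on chromosome 12 (12936093 to 12941914, minus strand, ENSMUSG00000037169.15). Its 7 peaks within 250 kb lay 242, 126, 41.3 and 1.65 kb upstream and 2.96, 153 and 158 kb downstream of the TSS. Only the peak at 242 kb was nearer to another protein-coding gene, *Ddx1*, an RNA helicase gene. *Mycn* was the member with the closest peak, at 1.65 kb, and 3.06% of protein-coding genes had a closer one. The peak at 2.96 kb lay in an intron of *Mycn* itself, which held for no other peak of the 7 genes. The peak at 153 kb was 908 bp wide, the 12th in width among all 8735 peaks, stood on 2 lines of the list, and lay in an intron of the long noncoding RNA gene *Platr19*, 0.476 kb from that gene's TSS. A second peak followed it at a gap of 3.46 kb. The peaks of *Mycn* therefore formed a proximal pair and a distal pair, with 3 further peaks standing apart upstream. The proximal upstream sequence is shown because it is the closest peak of any member, with its Nanog core CCATTA in capitals, and an Esrrb consensus TCAAGGTCA lay elsewhere in the same peak.
Peak 1.65 kb upstream of Mycn, chr12:12943409-12943708: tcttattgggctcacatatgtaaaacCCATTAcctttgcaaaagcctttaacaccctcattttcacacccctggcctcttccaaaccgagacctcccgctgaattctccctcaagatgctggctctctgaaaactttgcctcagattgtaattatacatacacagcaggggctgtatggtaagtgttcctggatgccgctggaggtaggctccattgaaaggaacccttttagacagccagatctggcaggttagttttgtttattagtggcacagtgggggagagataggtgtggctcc

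*Mycl*, the L-myc gene, lies on chromosome 4 (122995652 to 123002485, plus strand, ENSMUSG00000028654.13). Its only peak within 250 kb was intergenic, 65.2 kb downstream of the TSS and 362 bp wide, and was nearer to *Trit1*, a tRNA modification gene, at 44.2 kb. Upstream the closest peak was 936 kb away. Of all protein-coding genes 42.3% had a peak closer to their TSS, which placed *Mycl* near the middle of the genome and apart from *Myc* (7.39%) and *Mycn*. The peak carried 2 Sox copies and 2 copies of the Tead consensus GGAATG, and the stretch with both Sox copies and 1 Tead copy is shown to set it beside the closest *Myc* peak.
Peak 65.2 kb downstream of Mycl, chr4:123060703-123060873: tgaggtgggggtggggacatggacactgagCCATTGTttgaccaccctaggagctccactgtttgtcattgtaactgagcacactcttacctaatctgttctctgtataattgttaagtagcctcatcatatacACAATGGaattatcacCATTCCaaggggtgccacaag

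*Max*, which encodes the shared partner of all these factors, lies on chromosome 12 (76937269 to 76962201, minus strand, ENSMUSG00000059436.13). A peak of 309 bp lay 3.15 kb upstream of its TSS, and 4.41% of protein-coding genes had a closer one. The other 4 peaks lay 43.1, 51.7, 66.1 and 78.1 kb downstream, all in introns of *Fntb*, the gene for the beta subunit of protein farnesyltransferase, with a gap of 8.26 kb between the first and the second and of 11.7 kb between the last of them. The peak at 78.1 kb was nearest to *Rab15*, a small GTPase gene. Counted from the start of every annotated transcript, *Max* kept only the upstream peak, and the 4 downstream ones were nearest to *Fntb*, the closest at 0.533 kb. The peaks near *Max* were thus 1 proximal upstream peak and a row of 4 inside a neighbouring gene. The upstream peak is shown because it is the only peak within 5 kb of a partner or antagonist, and none of the motifs searched was found in it.
Peak 3.15 kb upstream of Max, chr12:76965205-76965504: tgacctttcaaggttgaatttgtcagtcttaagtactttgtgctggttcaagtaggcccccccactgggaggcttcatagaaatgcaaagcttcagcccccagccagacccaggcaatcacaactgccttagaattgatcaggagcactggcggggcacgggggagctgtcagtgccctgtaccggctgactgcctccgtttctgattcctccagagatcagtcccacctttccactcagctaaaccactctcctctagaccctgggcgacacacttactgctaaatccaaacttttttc

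*Mga* lies on chromosome 2 (119897228 to 119969581, plus strand, ENSMUSG00000033943.15). All 4 of its peaks were upstream, at 190, 166, 41.4 and 39.6 kb, and the closest downstream was 347 kb away. The pair near 40 kb was intergenic with a gap of 1.41 kb, and *Mga* was its nearest protein-coding gene. The 2 farther peaks lay in introns of *Rtf1*, a transcription elongation gene, 1 of them nearest to *Rtf1* and the other to *Itpka*, an inositol kinase gene. Both were nearest to *Rtf1*, at 3.30 and 4.27 kb, when the start of every transcript counted. A Nanog core was found in 3 of the 4 peaks, and the closer of these, at 41.4 kb, is shown around its copy.
Peak 41.4 kb upstream of Mga, chr2:119855669-119855734: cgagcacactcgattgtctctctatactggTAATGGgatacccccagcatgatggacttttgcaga

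The antagonists *Mnt* and *Mxi1* were the nearest protein-coding gene of 0 peaks, as were 75.4% of all protein-coding genes. *Mnt* lies on chromosome 11 (74830920 to 74845725, plus strand, ENSMUSG00000000282.12), and its only peak within 250 kb was 110 kb upstream, in an intron of *Pafah1b1*, a gene of dynein regulation, and 3.82 kb from that gene's TSS. *Mxi1* lies on chromosome 19 (53310518 to 53375810, plus strand, ENSMUSG00000025025.14), with a peak of 586 bp 246 kb upstream in an intron of *1700054A03Rik*, nearest to the peptidase gene *Xpnpep1*, and an intergenic peak of 472 bp 82.5 kb downstream, 2.47 kb from *Smndc1*, a splicing factor gene. Counted from the start of every transcript, the downstream peak was 23.0 kb from a start of *Mxi1*. Of all protein-coding genes 57.7% had a closer peak than *Mnt* and 49.0% a closer peak than *Mxi1*. The sequences are shown for the Esrrb consensus in the peak near *Mnt* and for CACGTG near *Mxi1*, the only E-box found in the 24 peaks. Both of these peaks were centred in repeat-masked sequence, and the E-box lay 148 bp from the centre of its peak.
Peak 110 kb upstream of Mnt, chr11:74720796-74720864: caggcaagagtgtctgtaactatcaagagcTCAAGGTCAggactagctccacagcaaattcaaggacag
Peak 82.5 kb downstream of Mxi1, chr19:53393164-53393229: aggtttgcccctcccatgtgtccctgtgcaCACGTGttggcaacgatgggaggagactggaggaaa

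At the limit of the window, the members just inside were the *Mycn* peak at 242 kb and the *Mxi1* peak at 246 kb, and those just outside lay 252 kb upstream of *Mxi1* and 275 kb upstream of *Mnt*. The *Mxi1* count therefore turns on the exact limit. For *Mycl*, with 1 peak in the window, the next peak lay 287 kb downstream, and *Myc*, *Max* and *Mga* had no peak near the limit.

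Set side by side, the Myc genes and the Max partners and antagonists had the same number of peaks within 250 kb, 12 each. This was 4.0 peaks per gene (2.07 to 6.99, exact Poisson interval) for the Myc genes and 3.0 (1.55 to 5.24) for the partners and antagonists, with overlapping intervals, and the spread within each group was wider than the gap between them, from 1 to 7 and from 1 to 5. By nearest protein-coding gene the Myc genes had 12 peaks and the partners and antagonists 6, or 4.0 (2.07 to 6.99) and 1.5 (0.550 to 3.26) per gene, and these intervals overlapped as well. The intervals treat peaks as independent and leave out the spread between genes, so their overlap is no test of the groups. In both groups 2 genes held all of the nearest peaks. The mean over all protein-coding genes was 0.397 nearest peaks. When noncoding genes could also take a peak, the Myc genes kept 3 and the partners and antagonists 1.

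Distance to the closest peak gave the same split within each group. The median was 6.31 kb for the Myc genes and 61.1 kb for the partners and antagonists, against 85.3 kb over all protein-coding genes. *Myc*, *Mycn*, *Max* and *Mga* had a peak within 50 kb, which 35.2% of protein-coding genes had, and *Mycn* and *Max* had 1 within 5 kb, which 6.25% had. Each group held genes with a peak at a few kb and genes without one inside 50 kb.

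The median width of the 24 peaks within 250 kb was above that of the whole list, and the difference was not tested. It was 384.5 bp (quartiles 295.5 and 446.5) against 319 bp (265 and 393) over all peaks. At or above the overall median were 15 of the 24 (62.5%), against 50.2% of all peaks. The peaks of the Myc genes had a median of 390 bp, with 9 of 12 at or above the overall median, and those of the partners and antagonists 352 bp, with 6 of 12. The *Myc* peaks within the window ran from 374 to 574 bp, all above the overall median, whereas 4 of the 5 *Max* peaks ran from 235 to 309 bp, all below it. The width of a called interval is not a measure of binding strength.

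**Figure D3:**
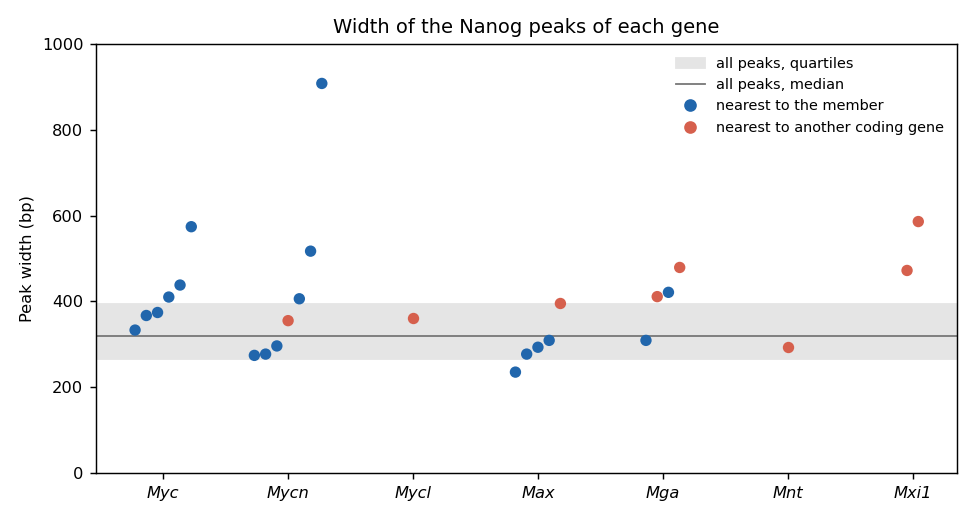
Width in bp (y axis) of each of the 26 peaks, by gene (x axis) and coloured by whether the member is the nearest protein-coding gene. The line and band are the median (319 bp) and quartiles (265 and 393 bp) of all peaks, and the point at 908 bp is the peak 153 kb downstream of *Mycn*.

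Peaks near these genes often had another peak close by. Of the 24 peaks, 13 (54.2%) had another within 12.5 kb, edge to edge, against 24.1% of all peaks. They were 2 at *Myc*, 4 at *Mycn*, 4 at *Max*, 2 at *Mga* and 1 at *Mxi1*, so this was shared by 5 genes and by both groups, with 6 of 12 peaks at the Myc genes and 7 of 12 at the partners and antagonists. No comparison with genes of equal peak number was made. By position 14 of the 24 were intergenic and 10 were in introns, and 0 were in an exon. No shares over all peaks are set beside these positions, so whether they differ from the list was not tested.

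The motifs found under the peaks are given by gene, and differences between genes were not tested. The Sox consensus was found in 4 of the 24 peaks (16.7%, exact binomial interval 4.74 to 37.4), 1 at *Myc*, 1 at *Mycl* and 2 at *Max*, and this interval included both the 28.2% of all peaks and the 15.2% (7 of 46) of the windows flanking these same peaks. The Nanog core was in 5 (20.8%, 7.13 to 42.2), all at *Mycn* and *Mga*, and in 19.6% of their flanks (9 of 46). For neither motif was an excess over their own flanks detectable in the 24 peaks. The Tead consensus was in 8 (33.3%, 15.6 to 55.3), against 25.4% of all peaks and 17.4% of their own flanks, with copies at all of the genes other than *Mga* and *Mnt*. The Esrrb consensus was in 3 (12.5%, 2.66 to 32.4), 1 each at *Mycn*, *Mnt* and *Mxi1*, against 3.53% of all peaks and 0 of 46 of their own flanks.

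Of the other motifs searched, the AP-1 consensus (TGACTCA or TGAGTCA) was in 2 peaks (8.33%) against 8.04% of all peaks, both upstream of *Mycn*, and the Klf consensus was in 1 (4.17%), in the peak downstream of *Mxi1*, against 9.0%. The E-box was in 1 of 24 peaks (4.17%, 0.105 to 21.1), against 4.24% of all peaks and 4.21% of their flanks, and in 5 of the 46 windows flanking the 24 peaks. The octamer ATGCAAAT, the Oct4-Sox2 composite with at most 2 mismatches, the Stat consensus TTCCNGGAA, the Tcf consensus CTTTGAT and the variant E-box CACGCG were each found in 0 of 24, which allows a share of up to 14.2%. In 6 of the 24 peaks none of these motifs was found. The median G and C content was 47.7%, equal to that of all peaks. In repeat-masked sequence lay 3 of the 24 peak centres. They were those of the *Mycl* peak, the *Mnt* peak and the peak 82.5 kb downstream of *Mxi1*, all shown above. No share over all peaks is set beside the count without a motif or the count in repeats. At 24 peaks the intervals are wide, and each of them included the share of all peaks.

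**Figure D4:**
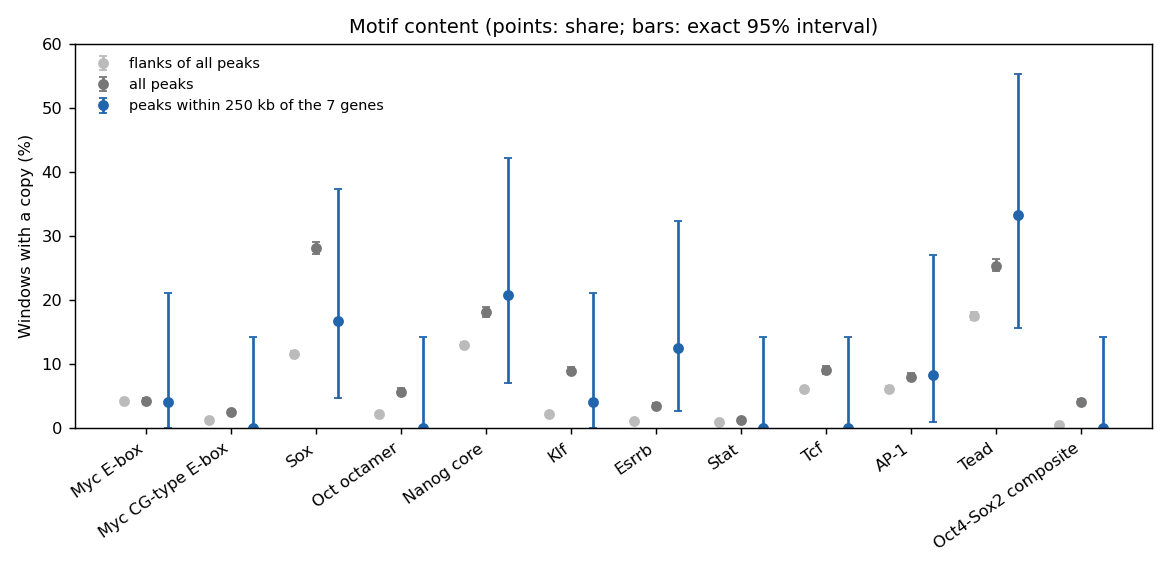
Share of windows with a copy of each motif (y axis, percent), for the 24 peaks within 250 kb of the 7 genes, for all 8735 peaks and for the flanks of all peaks. Points are shares and bars exact 95% binomial intervals, and the bars of the 24 peaks reach the share of all peaks for each of the 12 motifs.

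The wider pathway comprised 72 other genes in 5 lists. Of these genes 27 (37.5%) were nearest to 1 or more peaks, against 24.6% of all protein-coding genes, 38 (52.8%) had a peak within 50 kb, against 35.2%, and 33 (45.8%) had 4 or more within 250 kb, against 26.7%. Their median was 3 peaks within 250 kb, between the 4 of *Myc* and *Mga* and the 1 of *Mycl* and *Mnt*. The genes were chosen with earlier results of these data known, and the lists overlap in *Hdac1*, *Hdac2* and *Wdr5*, so these shares are descriptions.

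Of all protein-coding genes 24.6% were nearest to a peak, 8.66% to 2 or more, and 35.2% had 1 within 50 kb. The counts of the lists stand beside these shares, and no difference from them was tested. Among the remaining members of the Mxd and Mlx families, which are antagonists of Myc and their relatives, 2 of 6 genes (33.3%) were nearest to a peak. Nearest to 2 or more were 0 of them, beside 0 peaks of their own for *Mnt* and *Mxi1*. Within 250 kb *Mxd4* had 0 peaks, *Mxd3* 2, *Mxd1* 3, *Mlx* and *Mlxip* 4 each and *Mlxipl* 11, and the closest peaks of *Mxd1* and *Mlxip* lay 0.300 kb and 3.89 kb from their TSSs. The closest peak of *Mxd4* lay just past the limit, at 252 kb, and *Mlxipl* was the nearest protein-coding gene of 0 peaks. In the PRC1.6 complex of Mga, 6 of 14 genes (42.9%) were nearest to a peak and 9 (64.3%) had 1 within 50 kb. *Rybp*, a subunit of the complex, had 14 peaks within 250 kb and was nearest to 12, *Hdac2*, a histone deacetylase gene, was nearest to 4, and *Rnf2*, its ubiquitin ligase, to 2. *Mga* itself, with 4 and 2, stood close to *Rnf2*, and *Rybp* was far above both. Counting its own, *Rybp* had 1 protein-coding TSS within 250 kb, *Rnf2* had 5 and *Mga* 11, and the part of gene spacing was not tested.

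In the list of Sin3 corepressor and related genes, 5 of 13 (38.5%) were nearest to a peak, against 24.6% of all protein-coding genes. Mnt and Mxi1 recruit Sin3. Besides *Hdac2*, the genes *Arid4a* and *Ncor1* were nearest to 2 peaks each, and *Ncor1* stood in the list as a related gene. Among coactivators and cofactors of Myc 7 of 17 genes (41.2%) were nearest to a peak and 11 (64.7%) had 1 within 50 kb, the latter against 35.2% of all protein-coding genes. *Gsk3b*, a kinase that marks Myc for degradation, was nearest to 4 peaks. *Ruvbl1*, a helicase bound by Myc, and *Pim1*, a kinase that phosphorylates it, were each nearest to 2, the closest 0.0850 kb and 0.456 kb from their TSSs. Among 25 target genes of Myc 9 (36.0%) were nearest to a peak. Only *Odc1*, the ornithine decarboxylase gene of polyamine synthesis, was nearest to 2, beside 8.66% of all protein-coding genes nearest to 2 or more. Within 250 kb *Cad*, *Ldha* and *Shmt2* had 0, as had 19.6% of all protein-coding genes. Their closest peaks lay 394, 303 and 257 kb away, the last just past the limit.

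**Figure D5:**
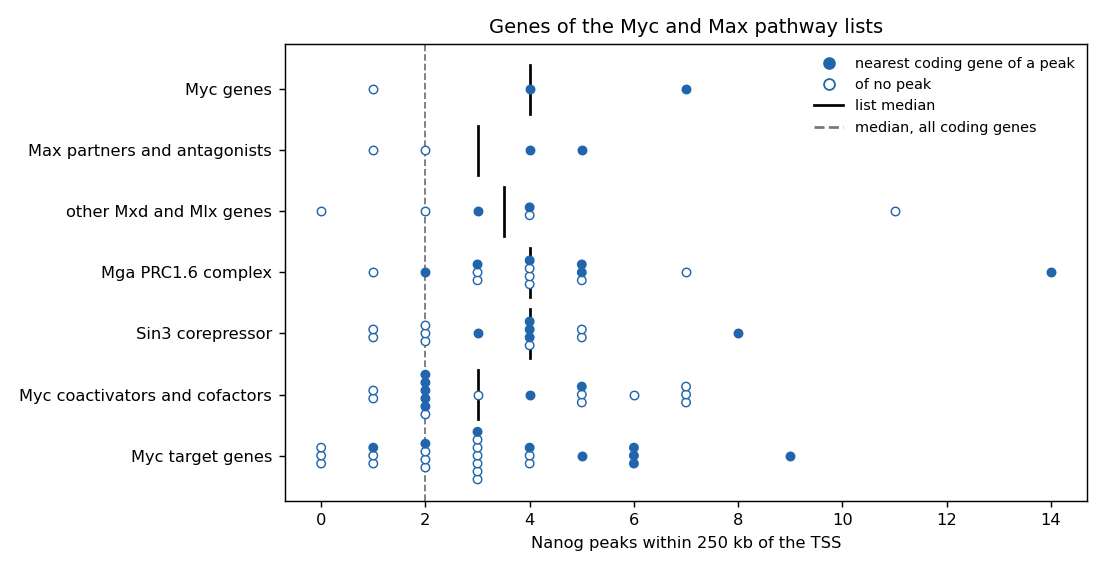
Nanog peaks within 250 kb of the TSS (x axis) of each gene of 7 lists (rows), filled where the gene is the nearest protein-coding gene of a peak. Black lines are list medians, from 3 to 4, the dashed line is the median of all protein-coding genes (2), and the point at 14 is *Rybp*.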

How the data were processed

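Per the study's methods, the authors checked reads with FastQC, aligned them to mm10 with Bowtie2, removed low-quality, duplicate, blacklisted and mitochondrial reads with BEDtools and SAMtools, and called peaks with MACS2. The call threshold, and whether the input was its control, are not given in the sources used here. The deposited list gives chromosome, start and end, without a score, and 123 of its lines repeat an interval, which was counted once. A site absent from the list may lie just below the threshold, and duplicate removal also bears on which weak sites appear.

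The TSS was the 5′ end of a gene in GENCODE vM21, distances ran from the middle base of a peak, and the nearest protein-coding gene lay at most 1000 kb away. Sequence was read from GRCm38 (mm10), and positions are 1-based. Consensus motifs were searched on both strands without mismatch except in the composite. Flanks were windows of peak width placed 1 kb beyond each edge. Intervals were exact Poisson or exact Clopper-Pearson at 95%, from SciPy 1.17.1 in Python 3.11.15. Counting and motif search were tested on simulated data. The 7 genes, the gene lists and the motifs were chosen with earlier results of these data known. Text names the 7 genes, the protein-coding genes that take their peaks, and list genes nearest to 2 or more peaks, and list genes with 0 peaks within 250 kb and the other Mxd and Mlx genes were added after the values were seen.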

Additional observations from a re-analysis of the deposited data

How the results depend on the processing

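Of 142 values recomputed under alternatives, 113 stayed within the counting interval or 1.5 times of the reported value and 29 did not. Of the 36 that concern a group, 7 did not. The count nearest to the Myc genes went from 12 to 3 when all annotated genes could take a peak and to 7 when the nearest gene had to lie within 100 kb. The count nearest to the partners and antagonists went from 6 to 3 with the TSS of every transcript, to 1 with peaks at or above the median width, and to 1 with all annotated genes. The count within 250 kb of the partners and antagonists went from 12 to 6 with peaks at or above the median width and to 26 within 500 kb. The number of members with a peak within 50 kb was 4, and 3 to 6 under the alternatives. The share of member peaks with a Sox consensus was 16.7%, and 8.33% to 25.0% under the alternatives. No paired analysis was possible because the list comes from 1 sample. The alternatives for peaks per Mb were chosen after the data were seen. Without replicates or peak scores, the error of a count between cultures is unknown, and a gene without a listed peak cannot be called unbound.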

Other observations

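Noncoding genes lay closer than the members to most of the peaks credited to them. Of the 18 peaks with a member as the nearest protein-coding gene, 4 had that member as the nearest gene of any kind. The 4 were at *Myc*, *Mycn* and *Max*. At *Max* the 3 others were nearest to *Gm47218*, a transcript model of 1.32 kb that awaits experimental evidence inside the extent of *Max*, and both *Mga* peaks were nearest to the processed pseudogene *Gm13998*. Upstream of *Myc*, 2 peaks were nearest to *Gm37947*, another such model, whose TSS lay 2.09 kb from that of *Myc*, and the peak 27.4 kb downstream was nearest to *Pvt1*. At *Mycn* 2 peaks were nearest to *Platr19*, whose TSS lay 154 kb away, and the others upstream to the long noncoding RNA genes *Gm35208* and *Gm48209*, at 45.4 kb and 113 kb. These genes were named after their values were seen.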
